A study of Mus musculus with 12 samples.

Results

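Transcripts of 7 receptors of the tumour necrosis factor (TNF) receptor superfamily and of the adaptor Traf1 were followed in 3 CD4+ populations of the mouse thymus. The 8 genes (Tnfrsf1b, Tnfrsf4, Tnfrsf8, Tnfrsf9, Tnfrsf18, Tnfrsf25, Cd27 and Traf1) were taken by symbol from the deposited table of expected counts, and 8 of its 55450 genes matched. All 8 passed the filter on low counts, as did 15361 genes in all. Eos+ regulatory T cells (Tregs) had been sorted as CD4+ Foxp3+ cells with Ccr6 and Cxcr4 on their surface. Eos- Tregs were CD4+ Foxp3+ cells that lacked Ccr6 and Cxcr4, and conventional T cells (Tconv) were CD4+ Foxp3- cells. Ikzf4 encodes the transcription factor Eos, and the Eos label thus rests on surface Ccr6 and Cxcr4 rather than on Eos itself. All 3 groups were taken from mice of the cross CD4-Cre x Foxp3-GFP, so Tconv carry both alleles too. Cre is driven there by the Cd4 promoter, and a green fluorescent reporter marks Foxp3 expression. Each group had 4 libraries, made per the labels from 1 ng of total RNA with a kit that does not mark the strand. The labels do not say whether replicates are separate animals, so the spread behind each p-value is that between libraries and may be technical.

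Libraries held 23.9 to 37.9 M expected counts. Cd3e, which encodes a T cell receptor complex subunit, was 801 to 1038 CPM (counts scaled to the same library total) in the 12 libraries. Of 8 T cell identity genes, 0 were called higher and 4 lower in Eos+ than in Eos- Tregs, 0 higher and 6 lower in Eos+ Tregs than in Tconv, and 1 higher and 3 lower in Eos- Tregs than in Tconv. The fold was largest for Trac, the T cell receptor alpha constant gene, at 1.70-fold lower in Eos+ Tregs than in Tconv, and Cd3e itself was lower there too (log2 fold change -0.23, adjusted p = 0.0186). Ikzf4 averaged 314 ± 17.5 CPM in Eos+ Tregs, 171 ± 12.7 CPM in Eos- Tregs and 25.3 ± 2.22 CPM in Tconv (SD, n = 4 each). Of the 2 sort markers, Ccr6 was 246 ± 15.0 CPM in Eos+ Tregs against 14.4 ± 3.92 CPM in Eos- Tregs (17.1-fold higher, adjusted p = 9.05e-06). Cxcr4 transcripts did not pass between them, at 39.1 ± 11.3 CPM in Eos+ Tregs against 28.7 ± 9.25 CPM in Eos- Tregs (adjusted p = 0.402). Foxp3, the defining Treg transcription factor, was 55.0 and 53.3 CPM in replicate 1 of Eos+ and of Eos- Tregs, 485 to 862 CPM in the other 6 Treg libraries and 0.687 to 3.42 CPM in Tconv. In the same libraries, Il2ra (538 and 496 CPM) and Ctla4 (436 and 261 CPM) lay within the range of the others of their group. Ikzf2 (465 and 262 CPM) was lowest there in each group, and Ikzf4 (319 and 155 CPM) in Eos- Tregs only. Of the 8 genes followed here, Tnfrsf1b, Tnfrsf4, Tnfrsf9, Tnfrsf18 and Traf1 were also lowest in replicate 1 of both Treg groups. Tnfrsf8 was highest there in both, and Tnfrsf25 and Cd27 followed neither pattern. Because of Foxp3, results are also given without the 3 libraries numbered 1 where that changed a call. Summed B cell markers (12 genes, mostly Ighm) were 1391 to 1826 CPM in Eos+ Tregs, 176 to 475 CPM in Eos- Tregs and 233 to 409 CPM in Tconv. Of the 11 of them tested, 3 were called higher in Eos+ than in Eos- Tregs. Of dendritic cell and macrophage markers, 3 of 11 tested were called higher in Eos+ than in Eos- Tregs, with sums over 13 genes of 98.6 to 158, 11.8 to 92.5 and 27.4 to 58.4 CPM in Eos+ Tregs, Eos- Tregs and Tconv. CD8, NK and innate lymphoid markers also had 3 of 11 called higher in Eos+ than in Eos- Tregs, with sums over 12 genes of 580 to 885, 248 to 530 and 713 to 1340 CPM in the same order. Against Tconv, 2 of these 11 were higher and 4 lower in Eos+ Tregs, and 1 was higher and 4 lower in Eos- Tregs. Kit was higher in both, at 67.2 ± 28.2 CPM in Eos+ Tregs, 43.6 ± 13.7 CPM in Eos- Tregs and 10.1 ± 1.48 CPM in Tconv. The NK receptor gene Klrb1c was lower in both, at 1.88 ± 1.95 CPM in Eos+ Tregs, 4.76 ± 5.35 CPM in Eos- Tregs and 51.8 ± 33.3 CPM in Tconv. Of 5 tested epithelial and stromal markers, 2 were higher and 1 lower in Eos+ than in Eos- Tregs. The higher genes included Epcam (2.39-fold). Pecam1 was the lower gene, at 136 ± 27.3 CPM in Eos+ Tregs against 268 ± 45.1 CPM in Eos- Tregs. Sums over the 11 genes of this list, mostly Pecam1, were 136 to 191 CPM in Eos+ Tregs. They were 233 to 338 CPM in Eos- Tregs and 196 to 224 CPM in Tconv. Over all tested genes, 9.82% were called higher and 6.45% lower in Eos+ than in Eos- Tregs. Against Tconv the shares were 17.3% and 13% in Eos+ Tregs and 8.76% and 5.89% in Eos- Tregs. Of 10 double-positive thymocyte markers, 0 were called in any comparison. Their sums were 207 to 539, 174 to 546 and 221 to 470 CPM in Eos+ Tregs, Eos- Tregs and Tconv. Among them, Cd8a varied with the replicate, at 54.2, 18.1, 4.17 and 0.616 CPM in replicates 1 to 4 of Eos+ Tregs. It was 53.3, 32.8, 1.83 and 3.85 CPM in Eos- Tregs and 28.5, 45.9, 5.07 and 8.02 CPM in Tconv. The part of the T cell genes and of these markers in the differences below was not tested.

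TNF receptors are membrane proteins that are brought together by trimeric ligands of the TNF family. The receptors studied here, apart from the death domain receptor encoded by Tnfrsf25, bind TRAF adaptors directly, and they act as costimulators that switch on NF-kB in T cells. In the thymus, Treg precursors are known to carry high surface levels of the receptors GITR (Tnfrsf18), OX40 (Tnfrsf4) and TNFR2 (Tnfrsf1b), and their stimulation favours the step to mature Foxp3+ Tregs. Traf1 is an adaptor that joins TRAF2-bound receptors and is itself a known target gene of NF-kB.

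Of the 8 genes, 6 lie on chromosome 4 within 10.8 Mb, here in mm10 coordinates with GENCODE M21 gene models. Tnfrsf1b (145213463 to 145246870) and Tnfrsf8 (145267137 to 145315164) are neighbours on the minus strand, 20.3 kb apart. Tnfrsf4 (156013843 to 156016612) and Tnfrsf18 (156026164 to 156028895) are neighbours on the plus strand, 9.55 kb apart, and neither pair has a protein-coding gene between its members. Tnfrsf9 (150914562 to 150946102) and Tnfrsf25 (152115934 to 152120119) lie between these pairs on the plus strand. Cd27 is on chromosome 6 (125232622 to 125237010) and Traf1 on chromosome 2 (34941750 to 34961772), both on the minus strand. Tnfrsf18 shares 414 bases, 27.2% of its exon bases, with the antisense gene Gm16008. Without strand, reads from the 2 genes cannot be told apart there, which makes the Tnfrsf18 values less certain. Gm16008 was given at most 12.6 CPM, a value that rests on the same division of reads.

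Promoters of the neighbouring pairs, whose members are compared below, and of the second start of Tnfrsf9 are shown from 250 bases before to 50 after the RefSeq start (GRCm38.p6), 5′ to 3′ on the gene's strand. Capitals mark matches to the NF-kB consensus or to the STAT motif TTCNNNGAA, both searched on both strands.
Tnfrsf8 (chr4:145315115-145315414, minus strand): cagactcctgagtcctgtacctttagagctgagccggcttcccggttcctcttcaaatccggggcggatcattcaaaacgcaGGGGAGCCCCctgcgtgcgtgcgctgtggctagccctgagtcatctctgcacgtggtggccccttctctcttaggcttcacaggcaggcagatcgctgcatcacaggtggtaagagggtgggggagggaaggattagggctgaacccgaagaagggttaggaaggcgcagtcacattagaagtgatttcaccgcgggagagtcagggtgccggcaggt
Tnfrsf1b (chr4:145246821-145247120, minus strand): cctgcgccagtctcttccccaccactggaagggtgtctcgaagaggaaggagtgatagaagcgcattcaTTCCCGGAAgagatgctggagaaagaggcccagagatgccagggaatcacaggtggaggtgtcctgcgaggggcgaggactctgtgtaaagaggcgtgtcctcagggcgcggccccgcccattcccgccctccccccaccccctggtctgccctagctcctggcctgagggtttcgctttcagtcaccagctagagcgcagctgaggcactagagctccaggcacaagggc
Tnfrsf4 (chr4:156013445-156013744, plus strand): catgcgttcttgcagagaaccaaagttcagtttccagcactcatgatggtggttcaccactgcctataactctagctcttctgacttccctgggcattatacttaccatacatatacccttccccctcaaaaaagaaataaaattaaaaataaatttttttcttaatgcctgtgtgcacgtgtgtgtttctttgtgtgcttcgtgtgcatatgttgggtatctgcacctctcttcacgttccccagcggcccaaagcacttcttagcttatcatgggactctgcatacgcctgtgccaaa
Tnfrsf18 (chr4:156026072-156026371, plus strand): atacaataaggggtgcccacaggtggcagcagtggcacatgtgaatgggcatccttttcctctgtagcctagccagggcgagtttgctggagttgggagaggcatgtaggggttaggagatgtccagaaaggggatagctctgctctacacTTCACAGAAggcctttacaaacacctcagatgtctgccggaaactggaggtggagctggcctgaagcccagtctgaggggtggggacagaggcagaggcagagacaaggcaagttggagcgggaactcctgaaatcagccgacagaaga
Tnfrsf9, second start (chr4:150927749-150928048, plus strand): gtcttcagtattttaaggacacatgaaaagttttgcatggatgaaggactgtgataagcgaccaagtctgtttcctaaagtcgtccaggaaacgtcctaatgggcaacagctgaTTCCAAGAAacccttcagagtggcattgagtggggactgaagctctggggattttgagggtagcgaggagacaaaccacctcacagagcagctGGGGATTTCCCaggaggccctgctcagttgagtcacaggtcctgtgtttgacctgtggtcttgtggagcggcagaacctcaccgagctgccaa
All 8 genes matched the RefSeq promoter table, with 10 starts in all. The NF-kB consensus was found at 2 of the 10 starts, those of Tnfrsf8 (from base -168, minus strand) and the second of Tnfrsf9 (2 overlapping matches from bases -43 and -42), against 4.51% of 32851 promoters of the same length. The STAT motif was found at 4 of the 10, at -181 in Tnfrsf1b, -136 at the second start of Tnfrsf9, -99 in Tnfrsf18 and -16 at the second start of Tnfrsf25, against 8.3% of all promoters. No match lay in the windows of Tnfrsf4, Cd27 and Traf1. The RefSeq start of Tnfrsf4 lies upstream of its GENCODE gene model.

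In Eos+ against Eos- Tregs, transcripts of Tnfrsf8, Tnfrsf1b, Traf1, Tnfrsf4 and Tnfrsf25 were higher, by 21.1-fold for Tnfrsf8 and by 1.27-fold to 1.85-fold for the other 4. Those of Tnfrsf9, Tnfrsf18 and Cd27 did not pass the test. That is 5 of 8 called higher and 0 lower (edgeR's quasi-likelihood test, Benjamini-Hochberg adjusted p under 0.05), beside 9.82% of the 15361 tested genes called higher and 6.45% called lower. The groups did not overlap, with Eos+ Tregs higher, in the same 5 genes, beside 12.1% of tested genes. The median log2 fold change of the 8 was 0.46, against 0.00 over all tested genes. In bulk RNA, fewer cells of a type and less RNA per cell cannot be told apart. Without the 3 libraries numbered 1, only Tnfrsf8, Tnfrsf1b and Traf1 passed, while the adjusted p was 0.0715 for Tnfrsf4 and 0.0965 for Tnfrsf25. With the replicate number as a block, 7 of 8 were called, with Tnfrsf18 added as higher (adjusted p = 0.0111) and Cd27 as lower (adjusted p = 0.0496).

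Against Tconv, both Treg populations had several-fold higher transcripts of most of these genes. In Eos+ Tregs against Tconv, 7 of 8 were higher and 0 lower, all but Cd27, beside 17.3% of tested genes called higher and 13% called lower. The same 7 genes had non-overlapping groups, beside 18.5% of tested genes. In Eos- Tregs against Tconv, 7 of 8 were higher and 0 lower, all but Tnfrsf8, beside 8.76% called higher and 5.89% called lower. Non-overlapping groups were again found in those 7, beside 10.5% of tested genes. The median log2 fold change of the 8 was 2.35 and 1.69 in the 2 comparisons, against -0.01 in each over all tested genes. The 2 comparisons share the Tconv libraries.

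**Figure D1:**
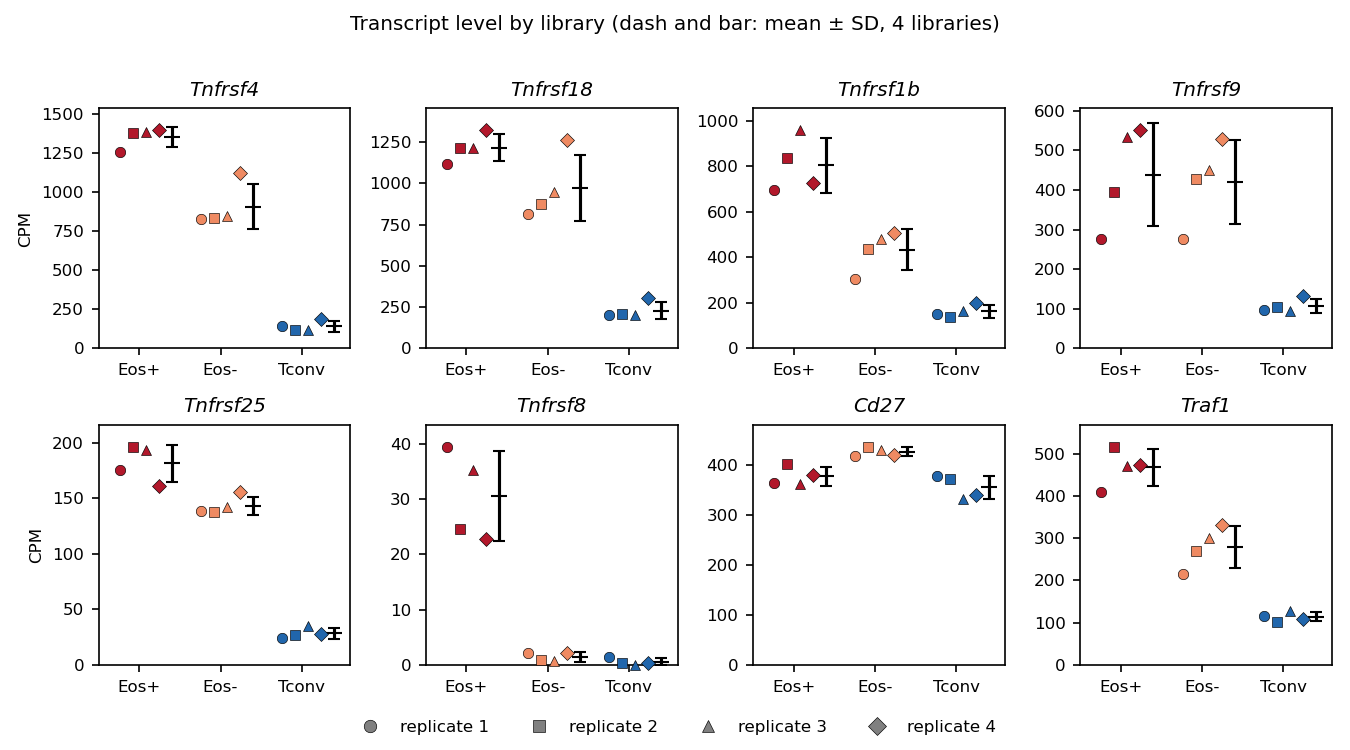
Transcript level in CPM of each gene (1 panel a gene, each with its own axis from 0) in the 4 libraries of Eos+ Tregs, Eos- Tregs and Tconv, with symbols for replicate numbers and the mean ± SD at the right of each group. Tnfrsf8 stood between 22.8 and 39.4 CPM in Eos+ Tregs and at 2.20 CPM or less in the other 8 libraries, while the Cd27 panel is nearly level across the 3 groups.

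Tnfrsf8 encodes CD30, a receptor of activated lymphocytes, and had the largest difference of the 8. It was 39.4, 24.6, 35.2 and 22.8 CPM in replicates 1 to 4 of Eos+ Tregs, 2.20, 0.826, 0.622 and 2.15 CPM in Eos- Tregs and 1.50, 0.390, 0.0311 and 0.394 CPM in Tconv. The 4 Eos+ Treg libraries, with 776 to 1257 counts each, stood above the other 8, of which none had more than 75 counts. Its level was 21.1-fold higher in Eos+ than in Eos- Tregs (log2 fold change 4.40, SE 0.68, adjusted p = 0.000863 by edgeR's quasi-likelihood test). Within same-numbered libraries the ratio of Eos+ to Eos- Tregs was 10.6 to 56.7. Against Tconv, Eos+ Tregs were 52.6-fold higher (log2 fold change 5.72, SE 0.73, adjusted p = 7.14e-05). Eos- Tregs overlapped Tconv, at a mean of 1.45 ± 0.844 CPM against 0.580 ± 0.639 CPM (SD, n = 4 each), and the difference did not pass (log2 fold change 1.32, 95% interval 0.01 to 2.63, adjusted p = 0.223). Tconv replicate 1 alone held 46 of the Tconv counts, against 1 to 15 in the other 3. Without it, the log2 fold change was 6.78 for Eos+ Tregs against Tconv and 2.39 for Eos- Tregs against Tconv, and the comparison of Eos- Tregs with Tconv then passed (adjusted p = 0.0323).

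Tnfrsf1b encodes TNFR2, the TNF receptor without a death domain. It was 696, 835, 958 and 725 CPM in Eos+ Tregs, 306, 439, 481 and 508 CPM in Eos- Tregs and 151, 136, 164 and 202 CPM in Tconv. The 3 groups did not overlap and stood in that order. Eos+ Tregs were 1.85-fold above Eos- Tregs (log2 fold change 0.89, SE 0.17, adjusted p = 0.00271) and 4.92-fold above Tconv (adjusted p = 8.70e-07, edgeR). Eos- Tregs were 2.65-fold above Tconv (adjusted p = 0.000131).

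The neighbouring genes Tnfrsf4 and Tnfrsf18 encode the costimulators OX40 and GITR. Tnfrsf4 was 1259, 1376, 1382 and 1395 CPM in Eos+ Tregs, 825, 833, 849 and 1125 CPM in Eos- Tregs and 141, 115, 119 and 187 CPM in Tconv. No Eos- Treg library reached the lowest Eos+ Treg library, and Tconv lay far below both. Its mean was 1.49-fold higher in Eos+ than in Eos- Tregs (log2 fold change 0.58, SE 0.15, adjusted p = 0.0182). That call was lost without replicate 2 of Eos- Tregs (adjusted p = 0.0614) or replicate 3 of Eos- Tregs (adjusted p = 0.0590). Against Tconv, Tnfrsf4 was 9.62-fold higher in Eos+ Tregs (adjusted p = 3.38e-08) and 6.46-fold higher in Eos- Tregs (adjusted p = 4.09e-07).

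Tnfrsf18 was 1117, 1214, 1217 and 1322 CPM in Eos+ Tregs, 816, 872, 946 and 1262 CPM in Eos- Tregs and 202, 207, 202 and 304 CPM in Tconv. Replicate 4 of Eos- Tregs lay among the Eos+ Treg values. The difference between Eos+ and Eos- Tregs did not pass (log2 fold change 0.32, SE 0.16, 95% interval 0.02 to 0.63, adjusted p = 0.193). With the replicate number as a block, since same-numbered libraries deviated together, the log2 fold change was 0.34 and passed (adjusted p = 0.0111). The ratio of Eos+ to Eos- Tregs within a number was 1.37, 1.39, 1.29 and 1.05, above 1 in 4 of 4. Against Tconv, Tnfrsf18 was 5.31-fold higher in Eos+ Tregs (adjusted p = 3.85e-07) and 4.25-fold higher in Eos- Tregs (adjusted p = 4.02e-06).

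Tnfrsf9 encodes 4-1BB, a costimulator induced by activation. It was 275, 396, 533 and 550 CPM in Eos+ Tregs, 275, 426, 451 and 529 CPM in Eos- Tregs and 98.2, 105, 93.9 and 133 CPM in Tconv. The 2 Treg populations covered nearly the same range, from about the same lowest value, and each library of either stood above Tconv. Eos+ Tregs did not pass against Eos- Tregs (log2 fold change 0.06, 95% interval -0.38 to 0.50, adjusted p = 0.898). Against Tconv, Tnfrsf9 was 4.07-fold higher in Eos+ Tregs (adjusted p = 2.96e-05) and 3.91-fold higher in Eos- Tregs (adjusted p = 0.000131).

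Tnfrsf25 encodes DR3, the death domain receptor for TL1A. It was 176, 196, 193 and 161 CPM in Eos+ Tregs, 138, 137, 142 and 155 CPM in Eos- Tregs and 24.0, 26.7, 35.1 and 27.9 CPM in Tconv. Eos+ and Eos- Tregs did not overlap, with a gap of only a few CPM between their replicates 4. The 1.27-fold difference between them passed narrowly (log2 fold change 0.34, SE 0.11, adjusted p = 0.0495). It was lost with 9 alternatives, among them the absence of each Eos+ Treg library from 1 to 3 and of each Eos- Treg library, with adjusted p between 0.0558 and 0.131. Against Tconv the gene was 6.38-fold higher in Eos+ Tregs (adjusted p = 1.16e-08) and 5.04-fold higher in Eos- Tregs (adjusted p = 9.89e-08).

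Cd27 encodes a costimulatory receptor that resting T cells already carry. It was 365, 403, 362 and 381 CPM in Eos+ Tregs, 418, 437, 431 and 420 CPM in Eos- Tregs and 378, 372, 332 and 340 CPM in Tconv. Each Eos- Treg library stood above the other 8, and Eos+ Tregs overlapped Tconv. The 1.13-fold lower level in Eos+ than in Eos- Tregs did not pass (log2 fold change -0.18, SE 0.07, adjusted p = 0.0944). With the replicate number as a block it passed as lower (log2 fold change -0.18, adjusted p = 0.0496). Eos+ Tregs against Tconv did not pass either (log2 fold change 0.09, 95% interval -0.04 to 0.22, adjusted p = 0.372). Cd27 was 1.20-fold higher in Eos- Tregs than in Tconv (log2 fold change 0.26, SE 0.07, adjusted p = 0.0185). That call was lost with no filter on low counts or without replicate 2 or 3 of Eos- Tregs or Tconv replicate 3 or 4 (adjusted p = 0.0514 to 0.0603).

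Traf1, the adaptor, followed the graded pattern of Tnfrsf1b. It was 409, 516, 470 and 473 CPM in Eos+ Tregs, 214, 270, 301 and 330 CPM in Eos- Tregs and 116, 103, 128 and 109 CPM in Tconv, with no overlap between groups. Traf1 was 1.68-fold higher in Eos+ than in Eos- Tregs (log2 fold change 0.74, SE 0.12, adjusted p = 0.00142). Against Tconv it was 4.09-fold higher in Eos+ Tregs (adjusted p = 2.15e-07) and 2.44-fold higher in Eos- Tregs (adjusted p = 2.65e-05). The mean absolute difference in centred log2 CPM between Traf1 and Tnfrsf1b over the 12 libraries was 0.15, the smallest of the 28 pairs among the 8 genes.

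**Figure D2:**
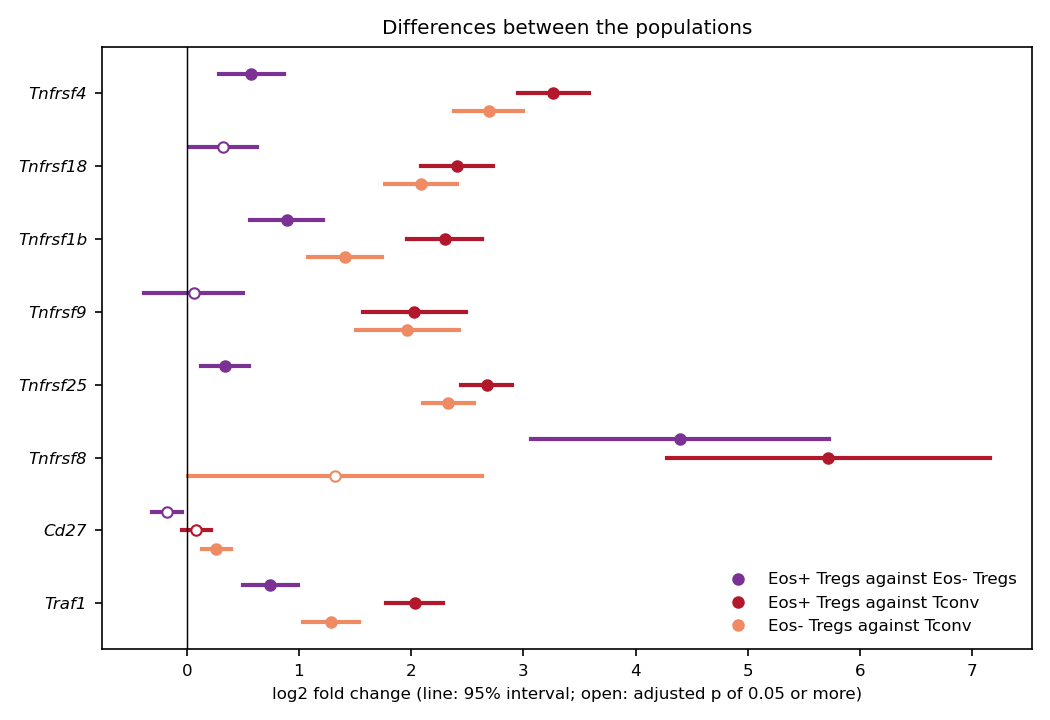
Log2 fold change of each gene (points) with its 95% interval (lines) in Eos+ Tregs against Eos- Tregs, Eos+ Tregs against Tconv and Eos- Tregs against Tconv, with open points where the adjusted p was 0.05 or more. The lines rest on a normal approximation and are narrower than the test implies. In Eos+ against Eos- Tregs the points run from -0.18 for Cd27 to 4.40 for Tnfrsf8, and the open ones are Tnfrsf18, Tnfrsf9 and Cd27.

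Levels of different genes were compared per length, as CPM per kilobase of annotated exons. In Eos+ Tregs, Tnfrsf4 led at 991 ± 46.5 CPM per kilobase, followed by Tnfrsf18 at 799 ± 54.9 (SD, n = 4 each). Below them came Tnfrsf1b at 211 ± 31.2, Cd27 at 162 ± 8.03, Tnfrsf9 at 161 ± 47.4, Tnfrsf25 at 79.7 ± 7.26, Traf1 at 53.0 ± 5.00 and Tnfrsf8 at 8.82 ± 2.34 CPM per kilobase. Cd27 and Tnfrsf9 did not differ beyond their spread there. In Eos- Tregs, Tnfrsf4 (665 ± 106) and Tnfrsf18 (639 ± 131 CPM per kilobase) did not differ beyond their spread, and Cd27 (183 ± 3.86) stood above Tnfrsf1b (114 ± 23.5). In Tconv, Cd27 (153 ± 9.96) and Tnfrsf18 (150 ± 33.0 CPM per kilobase) were highest and within their spread of each other, ahead of Tnfrsf4 at 103 ± 24.2. With the length of the longest coding transcript instead, Cd27 (242 CPM per kilobase in Eos+ Tregs) passed Tnfrsf1b (211) and Traf1 (136) passed Tnfrsf25 (109).

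Summed over the 7 receptors, levels reached 2413 ± 157 CPM per kilobase in Eos+ Tregs, against 1819 ± 288 for Eos- Tregs and 501 ± 65.2 for Tconv (SD, n = 4 each). The highest Eos- Treg library (2229) lay above the lowest Eos+ Treg library (2184), and no Tconv library exceeded 597 CPM per kilobase. Tnfrsf4 and Tnfrsf18 together made up 74.3 ± 1.53% of that sum in Eos+ Tregs, 71.6 ± 2.33% of it in Eos- Tregs and 50.2 ± 4.22% of it in Tconv. Cd27 made up 6.74 ± 0.474%, 10.3 ± 1.51% and 30.9 ± 4.45% in the same order of groups. The ratio of Tnfrsf4 to Tnfrsf18, both per kilobase, was 1.24 ± 0.0430 for Eos+ Tregs, 1.05 ± 0.0628 for Eos- Tregs and 0.686 ± 0.0692 for Tconv. The lowest Eos+ Treg ratio lay above the highest Eos- Treg ratio of 1.13, and the lowest Eos- Treg ratio, 0.995, above the highest Tconv ratio of 0.782.

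**Figure D3:**
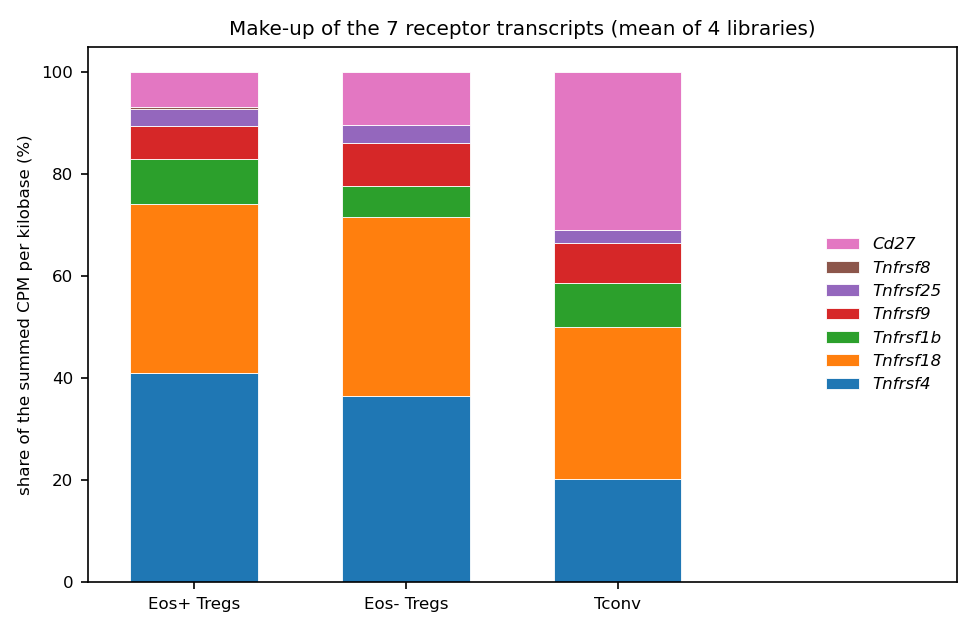
Share of each receptor in the summed CPM per kilobase of the 7 receptors (stacked bars, percent, mean of 4 libraries) in Eos+ Tregs, Eos- Tregs and Tconv. Tnfrsf4 and Tnfrsf18 fill 74.3% of the Eos+ Treg bar, 71.6% of the Eos- Treg bar and 50.2% of the Tconv bar, and Cd27 fills 30.9% of the Tconv bar.

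The ligands of these receptors were added because they bind them, with their values already known. Tnfsf8, the CD30 ligand, was 166, 195, 127 and 130 CPM in Eos+ Tregs, 59.4, 44.6, 55.7 and 56.5 CPM in Eos- Tregs and 23.0, 21.7, 21.8 and 16.4 CPM in Tconv. The 3 groups did not overlap, whereas for its receptor gene Tnfrsf8 the Eos- Tregs overlapped Tconv. The level of Tnfsf8 was 2.86-fold higher in Eos+ than in Eos- Tregs (adjusted p = 4.83e-05) and, in Eos- Tregs, 2.61-fold higher than in Tconv (adjusted p = 8.79e-05). Tnfsf15, which encodes the DR3 ligand TL1A, had 275 counts over the Eos+ Treg libraries, 0 over the Eos- Treg libraries and 2 over Tconv. With a floor of 3 counts over the Eos- Treg group, it was at least 83.4-fold higher in Eos+ than in Eos- Tregs. Cd70, the CD27 ligand, had 249 counts over the Eos+ Treg libraries, 10 over those of Eos- Tregs and 1 over Tconv, and was 23.0-fold higher in Eos+ than in Eos- Tregs (adjusted p = 0.00703). The 4-1BB ligand Tnfsf9 averaged 11.5 ± 2.04 CPM in Eos+ Tregs, 5.37 ± 2.06 CPM in Eos- Tregs and 4.77 ± 1.42 CPM in Tconv (SD, n = 4 each), 2.15-fold higher in Eos+ than in Eos- Tregs (adjusted p = 0.0192).

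Of the other ligands, Lta and Tnfsf4 did not pass between Eos+ and Eos- Tregs. Lta, whose product binds TNFR2, was 113 ± 8.90 CPM in Eos+ Tregs, 124 ± 10.6 CPM in Eos- Tregs and 30.0 ± 4.09 CPM in Tconv (SD, n = 4 each). Its adjusted p between Eos+ and Eos- Tregs was 0.449, and it was 3.78-fold and 4.15-fold higher than in Tconv in Eos+ and in Eos- Tregs (adjusted p = 8.55e-08 and 1.99e-07). The OX40 ligand gene Tnfsf4 averaged 3.44 ± 3.10 CPM in Eos+ Tregs, 3.27 ± 3.44 CPM in Eos- Tregs and 2.14 ± 0.846 CPM in Tconv, and passed in no comparison. The GITR ligand gene Tnfsf18 had 0 counts in all 12 libraries. Tnf was 12.5 ± 3.74 CPM in Eos+ Tregs and 5.66 ± 2.58 CPM in Eos- Tregs, and its call (2.21-fold higher, adjusted p = 0.0261) was lost with the 2 groups fitted alone or without replicate 1 of Eos+ Tregs or replicate 2, 3 or 4 of Eos- Tregs (adjusted p = 0.0530 to 0.0800).

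Over the whole list of 18 TNF family ligands, 14 were tested. In Eos+ against Eos- Tregs 9 were higher and 1 lower, beside 9.82% and 6.45% of all tested genes. The median log2 fold change was 1.12, also with Tnfsf15 at its bound. Over the alternatives the 9 ranged from 5 to 10. It was 5 without replicate 4 of Eos- Tregs, 6 with the 2 groups fitted alone and 7 without the 3 libraries numbered 1. The 1 fell to 0 with the 2 groups fitted alone or without replicate 2, 3 or 4 of Eos+ Tregs or replicate 1 or 2 of Eos- Tregs. The higher genes included Tnfsf10, which encodes the death ligand TRAIL, at 30.9 ± 4.65 CPM in Eos+ Tregs against 11.4 ± 1.53 CPM in Eos- Tregs (log2 fold change 1.44, adjusted p = 5.21e-05). In Eos+ Tregs against Tconv 7 were higher (8 without the 3 libraries numbered 1) and 2 lower, beside 17.3% and 13% of all tested genes, with a median of 1.40. In Eos- Tregs against Tconv 3 were higher and 2 lower, beside 8.76% and 5.89% of all tested genes. The median there was 0.02 (0.12 with Tnfsf15, at or under 3 counts in both groups, set by that floor). The lower count was 4 with the replicate block, without replicate 1 of Eos- Tregs or without the 3 libraries numbered 1. The 2 lower genes in each comparison with Tconv were Cd40lg and Fasl, the CD40 and Fas ligands. Cd40lg was 14.8 ± 6.36 CPM in Eos+ Tregs, 32.1 ± 13.4 CPM in Eos- Tregs and 109 ± 12.5 CPM in Tconv. The decrease against Tconv was 7.35-fold in Eos+ Tregs (adjusted p = 2.41e-05) and 3.39-fold in Eos- Tregs (adjusted p = 0.00212).

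Of 21 other TNF receptors, 14 were tested. In Eos+ against Eos- Tregs 5 were higher and 2 lower, beside 9.82% and 6.45% of all tested genes, with a median log2 fold change of 0.33. The higher count fell to 3 without replicate 2 of either group, and the lower count to 1 without replicate 2 or 4 of Eos+ Tregs, replicate 3 of Eos- Tregs or the 3 libraries numbered 1. In Eos+ Tregs against Tconv 6 were higher and 3 lower (median 0.74), beside 17.3% and 13% of all tested genes. In Eos- Tregs against Tconv, beside 8.76% and 5.89% of all tested genes, 2 were higher and 2 lower (median -0.08). The last count of 2 lower was 1 with the 2 groups fitted alone or without replicate 2, 3 or 4 of Eos- Tregs or Tconv replicate 1, 3 or 4. Cd40, the receptor by which B cells and dendritic cells receive T cell help, was 12.8, 9.19, 7.81 and 6.57 CPM in Eos+ Tregs, 0.748, 0.199, 0.138 and 0.345 CPM in Eos- Tregs and 1.93, 0.426, 1.74 and 1.13 CPM in Tconv. The Eos+ Treg libraries stood above the other 8. Its log2 fold change was 4.68 in Eos+ against Eos- Tregs (adjusted p = 0.000213), and 5.27 without replicate 1 of Eos- Tregs. B cell and dendritic cell markers were also higher in Eos+ Tregs, as given above, and their part in the Cd40 difference was not tested. Tnfrsf1a, the TNF receptor with a death domain, was lowest in Eos+ Tregs, at 15.6 ± 1.90 CPM, with 22.8 ± 3.95 CPM in Eos- Tregs and 35.3 ± 3.48 CPM in Tconv (SD, n = 4 each). Thus Tnfrsf1b was higher and Tnfrsf1a lower in Eos+ than in Eos- Tregs (1.47-fold for Tnfrsf1a, adjusted p = 0.0203). The Tnfrsf1a call was lost without replicate 2 or 4 of Eos+ Tregs, replicate 3 of Eos- Tregs or the 3 libraries numbered 1 (adjusted p = 0.0511 to 0.0749). Against Tconv, Tnfrsf1a was 2.27-fold lower in Eos+ Tregs (adjusted p = 5.51e-05) and 1.54-fold lower in Eos- Tregs (adjusted p = 0.0116). Fas, a death receptor, was 159 ± 11.9 CPM in Eos+ Tregs, 159 ± 16.9 CPM in Eos- Tregs and 75.4 ± 10.1 CPM in Tconv, and was 2.10-fold higher in each Treg population than in Tconv (adjusted p = 8.80e-06 and 3.18e-05).

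Next came adaptors and enzymes that carry the receptor signal. Of 25 such genes, all tested, 2 were higher and 2 lower in Eos+ than in Eos- Tregs, with a median log2 fold change of 0.08, close to the 9.82% higher and 6.45% lower over all tested genes. With the replicate block 5 were higher. With no filter, with the 2 groups fitted alone or without replicate 1, 2 or 3 of Eos+ Tregs or replicate 2 or 3 of Eos- Tregs, 1 was higher. Traf5, an adaptor of OX40, GITR and CD27 among others, was 53.0 ± 9.80 CPM in Eos+ Tregs against 31.9 ± 4.21 CPM in Eos- Tregs (1.66-fold higher, adjusted p = 0.00963). The 2 lower genes act in the branch of NF-kB signalling that leads to p52. Map3k14, which encodes the kinase NIK, was 59.9 ± 2.44 CPM in Eos+ Tregs against 76.9 ± 5.75 CPM in Eos- Tregs (1.28-fold lower, adjusted p = 0.0135). Birc3, a ubiquitin ligase in the complex that degrades NIK, was 195 ± 12.3 CPM in Eos+ Tregs against 263 ± 22.7 CPM in Eos- Tregs (1.35-fold lower, adjusted p = 0.00616). Against Tconv, 10 of 25 were higher and 1 lower in Eos+ Tregs (median 0.24), and 10 higher and 0 lower in Eos- Tregs (median 0.22). Over all tested genes, 17.3% and 8.76% were called higher and 13% and 5.89% lower in the 2 comparisons. The 10 higher in Eos+ Tregs ranged from 8 to 12 over the alternatives. The 10 higher in Eos- Tregs fell to 6 without replicate 4 of Eos- Tregs. Tank, a TRAF-binding regulator, was 268 ± 20.0 CPM in Eos+ Tregs, 292 ± 16.9 CPM in Eos- Tregs and 132 ± 9.41 CPM in Tconv, 2.03-fold and 2.21-fold higher in the 2 Treg populations (adjusted p = 1.09e-06 and 1.66e-06).

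Genes of NF-kB subunits and their inhibitors were mostly higher in both Treg populations than in Tconv. Of 11, all tested, 10 were higher in Eos+ Tregs than in Tconv (median log2 fold change 1.13) and 9 in Eos- Tregs than in Tconv (median 0.77), with 0 lower in either. Over all tested genes, 17.3% and 8.76% were called higher and 13% and 5.89% lower in these comparisons. The 9 became 10 without the 3 libraries numbered 1. In Eos+ against Eos- Tregs, 3 were higher and 0 lower (median 0.20), beside 9.82% and 6.45% of all tested genes. Nfkb2, the gene of p100 and p52, was 275, 412, 385 and 376 CPM in Eos+ Tregs, 194, 226, 222 and 236 CPM in Eos- Tregs and 109, 93.6, 110 and 126 CPM in Tconv. Its 3 groups did not overlap, as for Tnfrsf1b and Traf1. Nfkb2 was 1.65-fold higher in Eos+ than in Eos- Tregs (adjusted p = 0.00176) and 3.30-fold higher in Eos+ Tregs than in Tconv (adjusted p = 8.16e-07). Nfkbie, an inhibitor, was 1.47-fold higher in Eos+ than in Eos- Tregs (adjusted p = 0.00809). Relb, the partner of p52, was 150 ± 16.2 CPM in Eos+ Tregs against 113 ± 20.7 CPM in Eos- Tregs, with a call (adjusted p = 0.0453) that was lost in 8 settings, among them without replicate 2, 3 or 4 of Eos+ Tregs or replicate 1, 2 or 3 of Eos- Tregs (adjusted p = 0.0578 to 0.121). Rel, which encodes the subunit c-Rel, was 143 ± 55.5 CPM in Eos+ Tregs, 147 ± 42.7 CPM in Eos- Tregs and 46.8 ± 6.35 CPM in Tconv, 3.05-fold and 3.15-fold higher in the 2 Treg populations (adjusted p = 0.000498 and 0.00109).

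**Figure D4:**
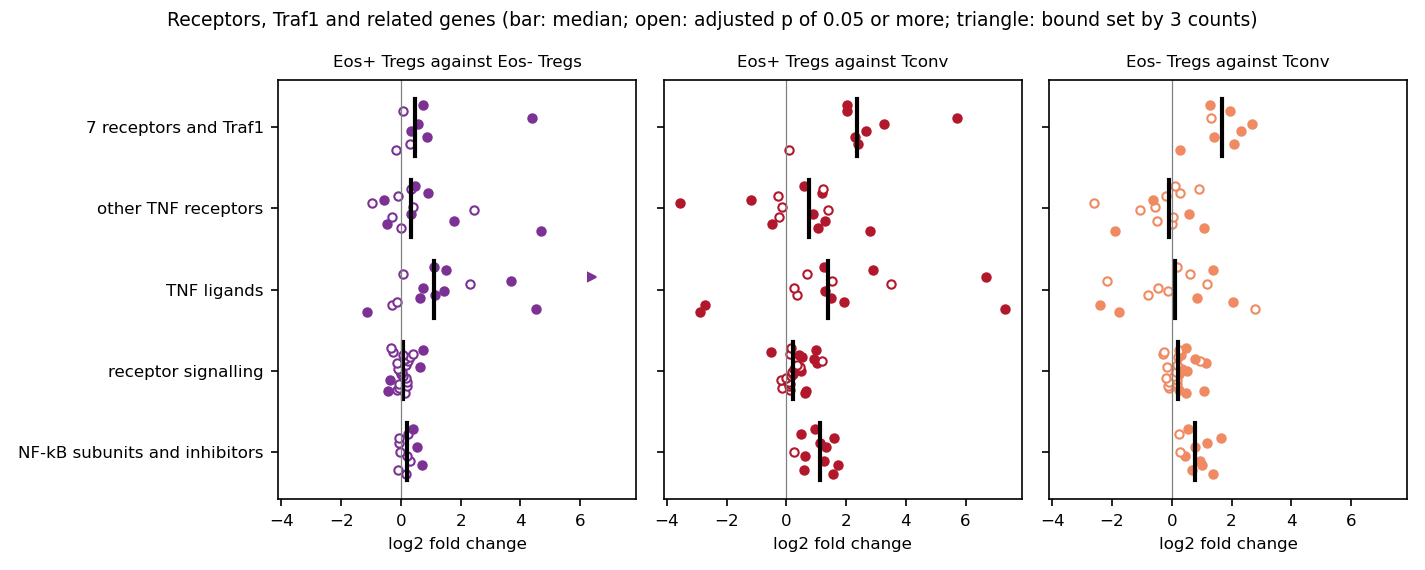
Log2 fold change of the 7 receptors and Traf1 and of the tested genes of 4 related lists (points) in the 3 comparisons, with the median of each list as a bar, open points where the adjusted p was 0.05 or more and a triangle where 3 counts set a bound. In Eos- Tregs against Tconv, Tnfsf15 has no point, but the ligand bar (0.12) includes it at the floor of 3 counts. The median of the 7 receptors and Traf1 is 0.46 in Eos+ against Eos- Tregs, below the 1.12 of the ligands, and 2.35 and 1.69 in the comparisons with Tconv, above those of the 4 lists.

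Genes with the most similar profile were found by the mean absolute difference in centred log2 CPM over the 12 libraries, among 9479 genes with a mean of at least 5 CPM. For Tnfrsf8 these were Myo3b (0.51), Zdhhc2 (0.62) and Slc12a8 (0.62), against a median of 2.38 over all genes searched. Myo3b averaged 40.5 CPM in Eos+ Tregs, 2.68 CPM in Eos- Tregs and 1.24 CPM in Tconv. Traf1 was closest to Cbx7 (0.09), Icam1 (0.15) and Apobec3 (0.15). Cbx7 was also among the 3 closest to Tnfrsf1b (0.16), with Cd101 (0.16) and Myo1c (0.16). Tbc1d4 was among the 3 closest to Tnfrsf4 (0.21), Tnfrsf18 (0.18) and Tnfrsf25 (0.18), with means of 315 CPM in Eos+ Tregs, 210 CPM in Eos- Tregs and 44.5 CPM in Tconv. Tnfrsf4 was closest to Cish (0.19), Tnfrsf18 to Etfbkmt (0.15), Tnfrsf25 to Apol9b (0.15) and Tnfrsf9 to Adamts6 (0.15). Cd27 was closest to Ilk (0.05), Chuk (0.05) and Dpf2 (0.06), against a median of 0.24 over all genes searched. Among the 8 genes, Tnfrsf8 and Cd27 were the least alike (2.39).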

How the data were processed

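RNA-seq libraries of 3 sorted thymic populations were used, 4 each. The authors deposited expected counts from RSEM, with no scaling for depth or gene length. The tools, per the submitters' processing notes, were RSEM 1.3.1, STAR 2.7.0f and cutadapt 1.18, with the mm10 genome. Their settings and annotation are not given in the sources used here. Between 9.54% and 10.7% of values per library were not whole, because reads that fit more than 1 gene are divided among them. All 55450 gene IDs matched GENCODE M21.

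Counts were rounded and fitted in R 4.3.3 with edgeR 4.0.16 (quasi-likelihood F test, TMM factors, filterByExpr, 1 mean per group over 12 libraries). Two-sided p-values were adjusted over the 15361 tested genes (Benjamini-Hochberg), with a threshold of 0.05. CPM are on TMM-scaled totals. Intervals at 95% are the log2 fold change and its SE on a normal approximation. They are narrower than the F test implies, so an interval that leaves out 0 does not mean a p-value under 0.05. Floors of 3 counts cover counting error only. The script was tested on simulated data.

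The genes and lists were chosen with earlier results of these data known. All 8 genes are named. Of each related list, up to 4 called genes with the largest log2 fold changes at 5 CPM or more could be named, besides the ligands of the receptors and Relb, Tnfrsf1a and Tnf where their calls were unstable. The 3 most similar genes were taken per gene.

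Replicate numbers come from the titles, and the library names share a tag per number. Deviations from the group means of same-numbered libraries correlated at 0.138 to 0.318 in 12 pairs, against -0.226 to 0.0695 in 36 other pairs. The numbers were therefore used as a block in 1 alternative fit. The main fit, on which the calls rest, has no block and leaves this pairing out. Alternatives were DESeq2 size factors, library totals alone, no filter, DESeq2 1.42.0, limma-voom (limma 3.58.1), the replicate block, the 2 groups alone, and leaving out libraries.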

Additional observations from a re-analysis of the deposited data

Results flagged for a closer look

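Of 24 groups of 4 libraries (8 genes in 3 groups), 3 had a library that stood far from the other 3, by a gap that chance gives in about 1 in 20 groups. Tnfrsf4 in Eos+ Tregs was lowest in replicate 1, at 1259 CPM, with the other 3 libraries between 1376 and 1395 CPM. Tnfrsf4 in Eos- Tregs was highest in replicate 4, at 1125 CPM, with the others between 825 and 849 CPM. Tnfrsf18 in Tconv was highest in replicate 4, at 304 CPM, with the others between 202 and 207 CPM.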

How the results depend on the processing

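Of 384 recomputed log2 fold changes of the 8 genes, 360 kept their direction and their side of the threshold, 17 lost their call, 4 gained one and 3 changed sign. The number of the 8 genes called in Eos+ against Eos- Tregs was 5, and 3 without the 3 libraries numbered 1. It was 3 to 5 with each library left out in turn, 4 with no filter, 6 with DESeq2 and 7 with the replicate block, in which Tnfrsf18 was added as higher and Cd27 as lower. In DESeq2 the added gene was Cd27 (adjusted p = 0.0498). In Eos+ Tregs against Tconv the number stayed at 7 throughout, and in Eos- Tregs against Tconv it was 6 to 8 with a library left out and 6 with no filter. The replicate block changed no other call of the 8 genes. The log2 fold change of Tnfrsf9 in Eos+ against Eos- Tregs, 0.06, changed sign without replicate 3 of Eos+ Tregs (-0.05), replicate 4 of Eos+ Tregs (-0.07) or replicate 1 of Eos- Tregs (-0.10), within a range of -0.10 to 0.23. The cause was not tested. Of 736 values of the named related genes, chosen for this after the data were seen, 707 kept their call, 29 lost it and 0 changed sign. Another exon length, also added later, changed levels per kilobase and the middle of their order. Another scaling moved the median log2 fold change of all genes by less than 0.05. Depth limits Tnfrsf8 in Eos- Tregs and Tconv, where libraries held 1 to 75 counts.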
